A study of Homo sapiens with 4 samples.

Results

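The genes described here encode zinc finger transcription factors of the ZBTB, ZSCAN, ZKSCAN, KLF and SP families. They were chosen by symbol alone, as those names followed by a number, and this gave 86 of the 14911 genes with a count in any library. They comprise 40 ZBTB, 15 ZSCAN, 6 ZKSCAN, 16 KLF and 7 SP genes, and a further 2, SP100 and SP140L, match the symbols but encode nuclear body proteins outside the Sp/KLF zinc finger family. m6A-seq compares mRNA fragments recovered with an antibody against N6-methyladenosine (m6A-IP) with the fragmented mRNA before recovery (input). The 4 libraries, 1 per group, come from HEK293T cells that carried either a control shRNA (shCTL) or an shRNA against the m6A demethylase ALKBH5 (shA5), with an input and an m6A-IP of each. All 4 groups were X-irradiated, at 10 Gy by the study's methods, so no group shows these genes in cells without radiation. HEK293T is a human embryonic kidney line that carries SV40 large T antigen. The harvest time and the particular ALKBH5 shRNA of these libraries are not given in the sources used here.

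The proteins of these families share the C2H2 zinc finger, a short fold in which a pair of cysteines and a pair of histidines hold a zinc ion, and they differ in what stands in front of the fingers. ZBTB proteins carry a BTB domain, which pairs the proteins and in many of them recruits corepressors such as BCOR and NCOR. ZSCAN and ZKSCAN proteins carry a SCAN domain, which also pairs proteins, and many ZKSCAN proteins add a KRAB box, the docking site of the corepressor TRIM28. KLF and SP proteins bind GC-rich boxes and CACCC elements through closely similar fingers at their carboxyl end. m6A is deposited in the nucleus mostly at RRACH sites, where R stands for a purine and H for any base other than G, and GGACT is among its preferred forms. Methylation is densest in long internal exons and near stop codons.

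The stretches that encode the first C2H2 finger are printed below for 5 genes that stood at the ends of the enrichment order in shCTL, to show the feature that defines the families. Capitals mark the codons of the 2 cysteines and 2 histidines. The sequences are from hg38 with Gencode v44, read 5′ to 3′ on the coding strand of the most counted transcript, and lie in coding exons.
KLF4, chr9:107487032-107487100, minus strand, exon 4: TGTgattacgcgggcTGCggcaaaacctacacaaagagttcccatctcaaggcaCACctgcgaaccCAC
SP9, chr2:174337085-174337153, plus strand, exon 2: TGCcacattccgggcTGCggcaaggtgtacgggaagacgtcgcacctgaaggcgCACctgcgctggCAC
KLF16, chr19:1863045-1863113, minus strand, exon 1: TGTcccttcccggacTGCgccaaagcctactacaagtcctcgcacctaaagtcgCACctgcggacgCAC
ZBTB12, chr6:31900238-31900303, minus strand, exon 2: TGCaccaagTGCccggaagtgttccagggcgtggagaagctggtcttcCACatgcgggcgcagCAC
ZKSCAN8, chr6:28153250-28153312, plus strand, exon 6: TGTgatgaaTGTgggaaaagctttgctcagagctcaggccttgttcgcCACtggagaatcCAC
The stretch is 69 bases long in KLF4, SP9 and KLF16, and 66 and 63 bases in ZBTB12 and ZKSCAN8, where the cysteines stand closer together. In shCTL, KLF4 and SP9 lay among the transcripts with the highest IP over input, and KLF16, with a finger of the same length and spacing, among those with the lowest.

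The candidate methylation sites of the same kind of transcripts are shown as 25 bases with the 5-base motif in capitals. Positions are counted from the last base before the stop codon, negative toward the start, and refer to the A of the motif. The 4 GGACT sites of SP9 and the 2 RRACH sites of ZBTB12 nearest to the stop codon are given because both transcripts were strongly enriched and had less enrichment in shA5, and 1 site each of ZKSCAN8 and ZBTB37 because these were depleted.
SP9, chr2:174336879-174336903, coding exon 2, position -646: cctcctattcGGACTccagcgccgc
SP9, chr2:174337226-174337250, coding exon 2, position -299: cggcatctgcGGACTcacacgggcg
SP9, chr2:174338001-174338025, 3′ UTR in exon 2, position 476: acccagcaaaGGACTgtcagaacat
SP9, chr2:174338476-174338500, 3′ UTR in exon 2, position 951: tattattaaaGGACTctgaacaata
ZBTB12, chr6:31899973-31899997, minus strand, coding exon 2, position -56: caacacggcaAGACCacggccgaga
ZBTB12, chr6:31899748-31899772, minus strand, 3′ UTR in exon 2, position 169: ttccttggagAGACTtgctcttgag
ZKSCAN8, chr6:28157084-28157108, plus strand, 3′ UTR in exon 6, position 3082: gaggtttaatGGACTcagttccaca
ZBTB37, chr1:173888181-173888205, plus strand, 3′ UTR in exon 5, position 2072: ccatctttagGGACTggctgtgctc
The ZBTB12 transcript held 16 RRACH sites, of which 12 were coding, and 0 GGACT sites. Of all 432 transcripts within 10% of its length, 90.5% held GGACT at least once. The ZBTB37 transcript held 257 RRACH and 22 GGACT sites, and all of its GGACT sites lay in the 3′ UTR. The letters of a site do not show that it is methylated, and the sites were searched on the sense strand.

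For shCTL the input held 2237819 counts and the m6A-IP 3944402, and for shA5 the input held 1311390 and the m6A-IP 3148119. The zinc finger genes took 0.311 and 0.328% of the counts of the shCTL and shA5 inputs, and 0.441 and 0.468% of those of the matching m6A-IPs. ALKBH5 itself, the target of the shRNA, went from 486 counts (shCTL) to 145 (shA5) in the inputs, which is -0.97 on the log2 scale of CPM (counts scaled to equal library totals). Of 7 marker genes listed for HEK293T cells, NES and NEFL had ample counts (431 and 179 in the shCTL input), and the other 5 were under the count minimum: VIM had 2 to 8 counts per library, NEFM 2 to 8, INA 2 to 24, CDH2 5 to 23 and PAX2 0 to 1. The summed level of the 7 was 287 CPM in the input of shCTL and 178 CPM in that of shA5, and most of that difference was NES alone, at 193 and 103 CPM. Of 8 markers of HCT116 colorectal cells, the other line grown in the study, CDX2 had 376 counts in the input of shCTL and 223 in that of shA5, with 1488 and 1143 in the matching m6A-IPs, CEACAM5 and EPCAM had 0 to 3, and the other 5 were not listed. The summed level of these 8 was 171 and 173 CPM in the 2 inputs.

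Every gene below is given by its counts in 4 libraries, first the input and the m6A-IP of shCTL, then the input and the m6A-IP of shA5. Its m6A enrichment is the CPM in the IP over the CPM in the input, each with 0.5 CPM added, as a log2 value. It is relative to the library, so 0 means that the gene's share of counts was equal in both. Intervals are exact 95% intervals of the ratio without that addition, and cover counting error only. With 1 library per group there is no replicate check, no test was run, and each comparison is one of these libraries. Compared were the genes whose counts averaged 50 or more per library, 5320 in all and 37 of the 86 zinc finger genes (16 ZBTB, 6 ZSCAN, 4 ZKSCAN, 8 KLF, 3 SP). The m6A-IP counts enter this mean, so a transcript rich in the IP passes it more easily than a depleted one with the same input.

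Most of the 37 transcripts were richer in the m6A-IP than in the input. In shCTL, 22 of 37 reached an IP of at least 1.5-fold the input, or 59.5%, against 22.5% of all genes. In shA5 it was reached by 20 of 37, or 54.1%, against 24.3% of all genes. Among the 22 of shCTL, KLF4, ZBTB6, ZBTB41, ZBTB42, ZKSCAN1 and ZSCAN9 had under 50 counts in each input. They entered the 37 through their m6A-IP counts, as did ZSCAN23, which was not enriched. ZBTB25, with 60, 39, 42 and 32 counts and an enrichment of -1.39 in shCTL, was left out. Of the genes whose symbol is ZNF and a number, mostly KRAB zinc fingers, 53 of 122 passed in shCTL (43.4%) and 54 in shA5 (44.3%). The median log2 enrichment of the 37 was 0.66 in shCTL and 0.59 in shA5, that of the ZNF genes 0.46 and 0.50, and that of all genes -0.11 and -0.10. How far the 2 cell populations name the same transcripts over all genes is not given here. Of the 37, 18 were past 1.5-fold in both, 4 in shCTL alone (SP3, ZBTB5, ZBTB9 and ZSCAN30) and 2 in shA5 alone (ZBTB7A and ZBTB49). Of these 6, 4 depended on the trend of enrichment with GC content over all genes: with it removed, SP3, ZBTB5 and ZSCAN30 passed in both populations and ZBTB7A in neither. Counting intervals lay wholly above 0 for 26 of the 37 in shCTL (70.3%, against 33.7% of all genes) and for 24 in shA5 (64.9%, against 32.6%). They lay wholly below 0 for 4 in shCTL (10.8%, against 42.3% of all genes) and for 3 in shA5 (8.11%, against 39.1%).

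Few of these transcripts were depleted. In shCTL, 3 of 37 were at least 1.5-fold lower in IP than in input (8.11%, against 30.3% of all genes), and in shA5 also 3 of 37 (against 31.7% of all genes). ZKSCAN8 and ZBTB37 were depleted in both populations, KLF16 in shCTL and ZSCAN29 in shA5. KLF16 was depleted in both with the GC trend removed.

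**Figure D1:**
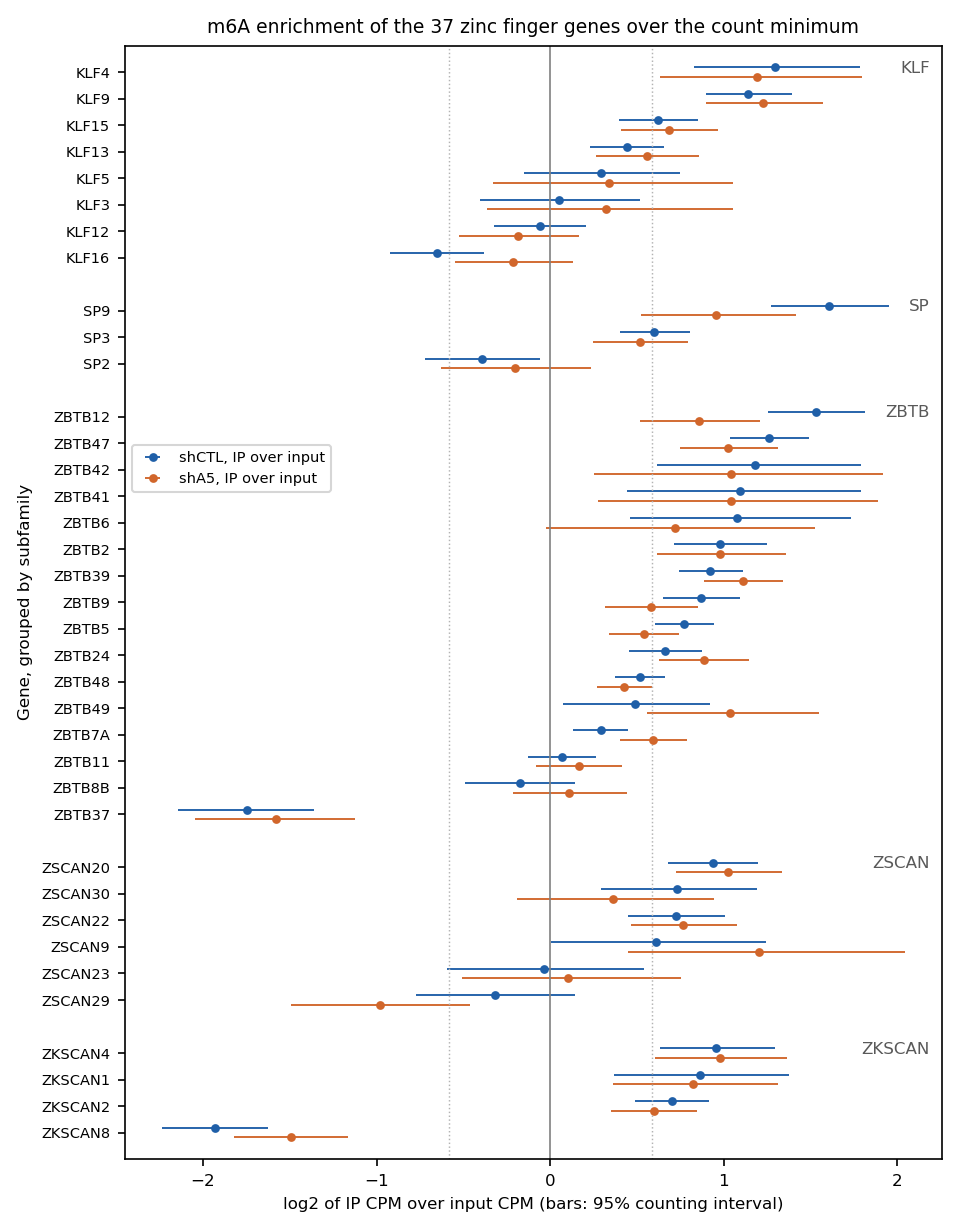
Log2 of m6A-IP CPM over input CPM (horizontal axis) for the 37 zinc finger genes over the count minimum (vertical axis, grouped by family), in shCTL (blue) and shA5 (orange). Each point is the ratio of 1 IP library to 1 input library without added CPM, bars are exact 95% counting intervals, and dotted lines mark 1.5-fold. Most points lie right of 0, while ZBTB37 and ZKSCAN8 lie far to its left in both populations.

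The SP family held the transcript with the highest enrichment in shCTL, that of SP9. With the GC trend removed, ZBTB41 (1.68), ZBTB6 (1.63), KLF9 (1.34) and ZKSCAN4 (1.29) lay above SP9 (1.26) there. SP9, a factor of limb and interneuron development on chromosome 2 (174334954 to 174338500, plus strand), had 88, 472, 53 and 247 counts. Its log2 enrichment was 1.59 in shCTL (95% interval 1.27 to 1.95) and 0.95 in shA5 (0.52 to 1.41), the latter short of 1.5-fold with the GC trend removed, at 0.57. SP3, a ubiquitous GC-box factor that shares its sites with SP1, had 281, 751, 146 and 501 counts, an enrichment of 0.60 in shCTL and 0.51 in shA5. SP2 ran the other way, with 134, 180, 68 and 142 counts and log2 enrichments of -0.39 in shCTL (-0.72 to -0.06) and -0.20 in shA5 (-0.63 to 0.24). All 3 genes encode 3 fingers, and their enrichments in shCTL lay on both sides of 0 with intervals that exclude it.

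Among the 8 KLF transcripts, 3 passed 1.5-fold enrichment in shCTL (37.5%, against 22.5% of all genes) and the same number in shA5 (against 24.3%). Their median was 0.36 in shCTL and 0.44 in shA5. KLF4, one of the reprogramming factors and a known p53 partner at the p21 gene, had 47, 203, 31 and 170 counts, and log2 enrichments of 1.27 (0.83 to 1.78) and 1.17 (0.63 to 1.79) in shCTL and shA5. KLF9, a hormone-induced repressor, followed with 170, 661, 89 and 500 counts and enrichments of 1.14 and 1.22. KLF15, a regulator of glucose and amino acid metabolism, had 221, 600, 136 and 525 counts and enrichments of 0.62 and 0.68. With the GC trend removed, the values of KLF15 fell short of 1.5-fold in both populations, at 0.34 and 0.37. KLF3, a repressor that recruits CTBP, and KLF12 lay near 0 in shCTL, at 0.05 and -0.06. KLF16 on chromosome 19 was the only KLF transcript past 1.5-fold depletion, with 216, 242, 109 and 226 counts. Its log2 enrichment was -0.65 in shCTL (-0.92 to -0.38) and -0.21 in shA5 (-0.55 to 0.13), and with the GC trend removed -1.31 and -0.98.

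The 16 ZBTB transcripts had the highest family median, 0.82 in shCTL and 0.77 in shA5. With the GC trend removed this first place went to SP in shCTL, with SP3 as its middle value at 1.12, and to ZKSCAN in shA5. In each population 10 of 16 ZBTB transcripts passed 1.5-fold enrichment (62.5%, against 22.5% of all genes in shCTL and 24.3% in shA5). ZBTB12, encoded in the MHC region of chromosome 6 (31899613 to 31902086, minus strand), had 130, 661, 87 and 378 counts and log2 enrichments of 1.52 (1.26 to 1.81) in shCTL and 0.85 (0.52 to 1.21) in shA5, the latter short of 1.5-fold with the GC trend removed, at 0.34. ZBTB47 had 199, 841, 127 and 621 counts and enrichments of 1.26 and 1.02, and ZBTB42 had 32, 128, 16 and 79 counts and enrichments of 1.15 and 1.01. The counts of ZBTB42 are low, and its interval in shA5 runs from 0.25 to 1.92. ZBTB37 stood apart from the rest of its family. It had 160, 84, 91 and 73 counts, and its log2 enrichments were -1.72 (-2.15 to -1.36) in shCTL and -1.56 (-2.05 to -1.12) in shA5. Its most counted transcript is the longest of the 37, at 19183 bases, of which 17912 are in 1 exon.

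Between these ends, ZBTB39 had one of the deepest profiles, with 315, 1053, 192 and 995 counts and log2 enrichments of 0.92 (0.74 to 1.11) in shCTL and 1.11 (0.89 to 1.34) in shA5. ZBTB2 was alike in both populations, with 152, 527, 74 and 350 counts and enrichments of 0.97 and 0.97. ZBTB5 had 381, 1148, 258 and 900 counts and enrichments of 0.77 and 0.54, and ZBTB9 had 220, 709, 148 and 531 counts and enrichments of 0.87 and 0.58. These 2 genes lay on either side of the 1.5-fold line between the populations, while the intervals of their changes, -0.50 to 0.03 and -0.64 to 0.06, include 0. ZBTB11, which is needed for the maturation of neutrophils, had 337, 622, 188 and 506 counts and lay near 0 in both, at 0.07 and 0.16. ZBTB41 and ZBTB6 had the lowest mean counts, with 25 and 28 counts in the shCTL input and 17 and 19 in the shA5 input. Their enrichments of 1.06 and 1.05 in shCTL came with intervals of 0.44 to 1.79 and 0.46 to 1.73.

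The telomere-binding factor ZBTB48 (TZAP) was the most abundant of the 37 per length, at 105 CPM per kb of transcript in the input of shCTL and 140 in that of shA5. It had 553, 1394, 430 and 1387 counts and a log2 enrichment of 0.52 in shCTL (0.37 to 0.66) and 0.43 in shA5 (0.27 to 0.59), short of 1.5-fold in both. In the shCTL input KLF15 was next at 38.9 CPM per kb, and ZBTB7A (LRF), a repressor of fetal globin genes, followed at 36.4. In the shA5 input ZBTB5 and ZBTB9 stood next at 41.9 and 41.6 CPM per kb, above KLF15 at 40.8 and ZBTB7A at 35.9. The median of the 37 was 14.6 CPM per kb in the shCTL input, and the lowest was ZBTB41 at 1.30.

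In the SCAN families, 4 of 6 ZSCAN and 3 of 4 ZKSCAN transcripts passed 1.5-fold enrichment in shCTL (66.7 and 75%, against 22.5% of all genes). In shA5 3 of each passed (50 and 75%, against 24.3% of all genes). ZSCAN20 led the ZSCAN genes in shCTL, with 161, 543, 109 and 532 counts and log2 enrichments of 0.93 and 1.02. ZSCAN9 barely passed in shCTL, at 0.59, and did not with its most counted transcript alone (0.45), with 2 CPM added (0.55) or with TMM factors (0.58). ZSCAN22 had 0.72 and 0.76, and ZSCAN23, with 43, 74, 31 and 80 counts, lay at -0.03 and 0.10. ZKSCAN2 had 246, 704, 172 and 624 counts and enrichments of 0.70 and 0.59, just past 1.5-fold in shA5. ZKSCAN4 led the ZKSCAN genes, with 100, 342, 72 and 340 counts and enrichments of 0.95 and 0.97. In ZKSCAN4, 9.75% of the 25-base stretches of the listed transcripts are shared with other genes, chiefly its neighbour ZKSCAN3, so reads of the pair may have been divided between them. ZKSCAN3, a repressor of autophagy genes, had 5, 1, 11 and 4 counts. ZKSCAN8 was the most depleted of the 37 in shCTL, with 287, 133, 170 and 145 counts and log2 enrichments of -1.91 (-2.24 to -1.63) and -1.48 (-1.82 to -1.16). ZKSCAN8 and ZKSCAN4 lie in the same cluster of zinc finger genes on chromosome 6 and stood at opposite ends of the ZKSCAN order.

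The change of enrichment from shCTL to shA5 addresses which of these transcripts gained or lost m6A signal, relative to other transcripts, with less ALKBH5. A gain or loss shared by most transcripts would not show, since each library was scaled to its own total. No transcript of the 37 was at least 1.5-fold higher in shA5 (0 of 37, against 5.38% of all genes), and 3 were at least 1.5-fold lower (8.11%, against 5.09% of all genes). Of the ZNF genes, 9 of 122 were higher and 7 lower. The median change was 0.04 over the 37 and 0.0036 over all genes, with 21 of the 37 above 0 (56.8%, against 50.5% of all genes). Counting intervals of the change lay wholly above 0 for 2 of the 37 (5.41%, against 8.18% of all genes) and wholly below 0 for 2 (5.41%, against 8.06%). These counts include no test, and with 3 genes the share of lower values lies near that of all genes.

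The 3 lower transcripts were ZBTB12, ZSCAN29 and SP9. ZBTB12 and SP9 went from the top of the order in shCTL toward the middle in shA5, with log2 changes of -0.67 (-1.12 to -0.22) and -0.64 (-1.21 to -0.08). With the GC trend removed, ZBTB41 (1.68) and ZBTB6 (1.63) led in shCTL, above SP9 (1.26) and ZBTB12 (1.08). The shCTL value enters both the order and the change, and the intervals do not allow for a choice of genes at its top. In ZBTB12 and SP9 the input differed little, by 0.19 and 0.04, so the lower value came with a lower IP level, 120 CPM against 168 for ZBTB12 and 78.5 against 120 for SP9. Both transcripts have 2 exons and an overlapping gene on the opposite strand. The overlapping gene of ZBTB12, C2, had 1, 5, 2 and 11 counts itself. The part of reads from the opposite strand in these values was not tested, and whether strand was used in counting is not given in the sources used here.

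ZSCAN29 was already below 0 in shCTL and lower again in shA5, with 70, 99, 60 and 73 counts and log2 enrichments of -0.31 (-0.77 to 0.15) and -0.97 (-1.49 to -0.46). Its change of -0.65 had an interval from -1.36 to 0.04, and it came mostly with a higher input (log2 change 0.54) and little with the m6A-IP (-0.11). ZSCAN29 overlaps TUBGCP4 on the opposite strand, which had 152, 211, 77 and 166 counts. A second transcript of ZSCAN29 carried counts in the m6A-IP libraries alone, 16 in shCTL and 11 in shA5, beside 0 in both inputs. ZSCAN30 and ZBTB6 had the next largest decreases, -0.37 and -0.35, and both intervals include 0 (-1.10 to 0.37 and -1.37 to 0.67).

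At the other end, ZBTB7A had 480, 1035, 280 and 1013 counts, and its enrichment went from 0.29 (0.13 to 0.45) in shCTL to 0.59 (0.40 to 0.79) in shA5. This change of 0.30 (0.05 to 0.55) and that of KLF16, 0.44 (0.0049 to 0.88), were the only increases among the 37 with intervals wholly above 0. The interval of KLF16 clears 0 narrowly, and with the GC trend removed its change was 0.31, for which no interval was computed. As reported, KLF16 was nearer to 0 in shA5 than in shCTL, but with the GC trend removed it was past 1.5-fold depletion in both, at -1.31 and -0.98. ZBTB7A was just past 1.5-fold in shA5, and at 0.33 there with the GC trend removed. Larger point values came with fewer counts. ZSCAN9 had 32, 86, 17 and 94 counts and a change of 0.58 (-0.42 to 1.64), just under 1.5-fold, and it passed 1.5-fold when scaled with edgeR TMM factors, at 0.59. ZBTB49 had 67, 166, 43 and 212 counts and a change of 0.54 (-0.11 to 1.21), and ZKSCAN8 a change of 0.43 (-0.02 to 0.89).

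**Figure D2:**
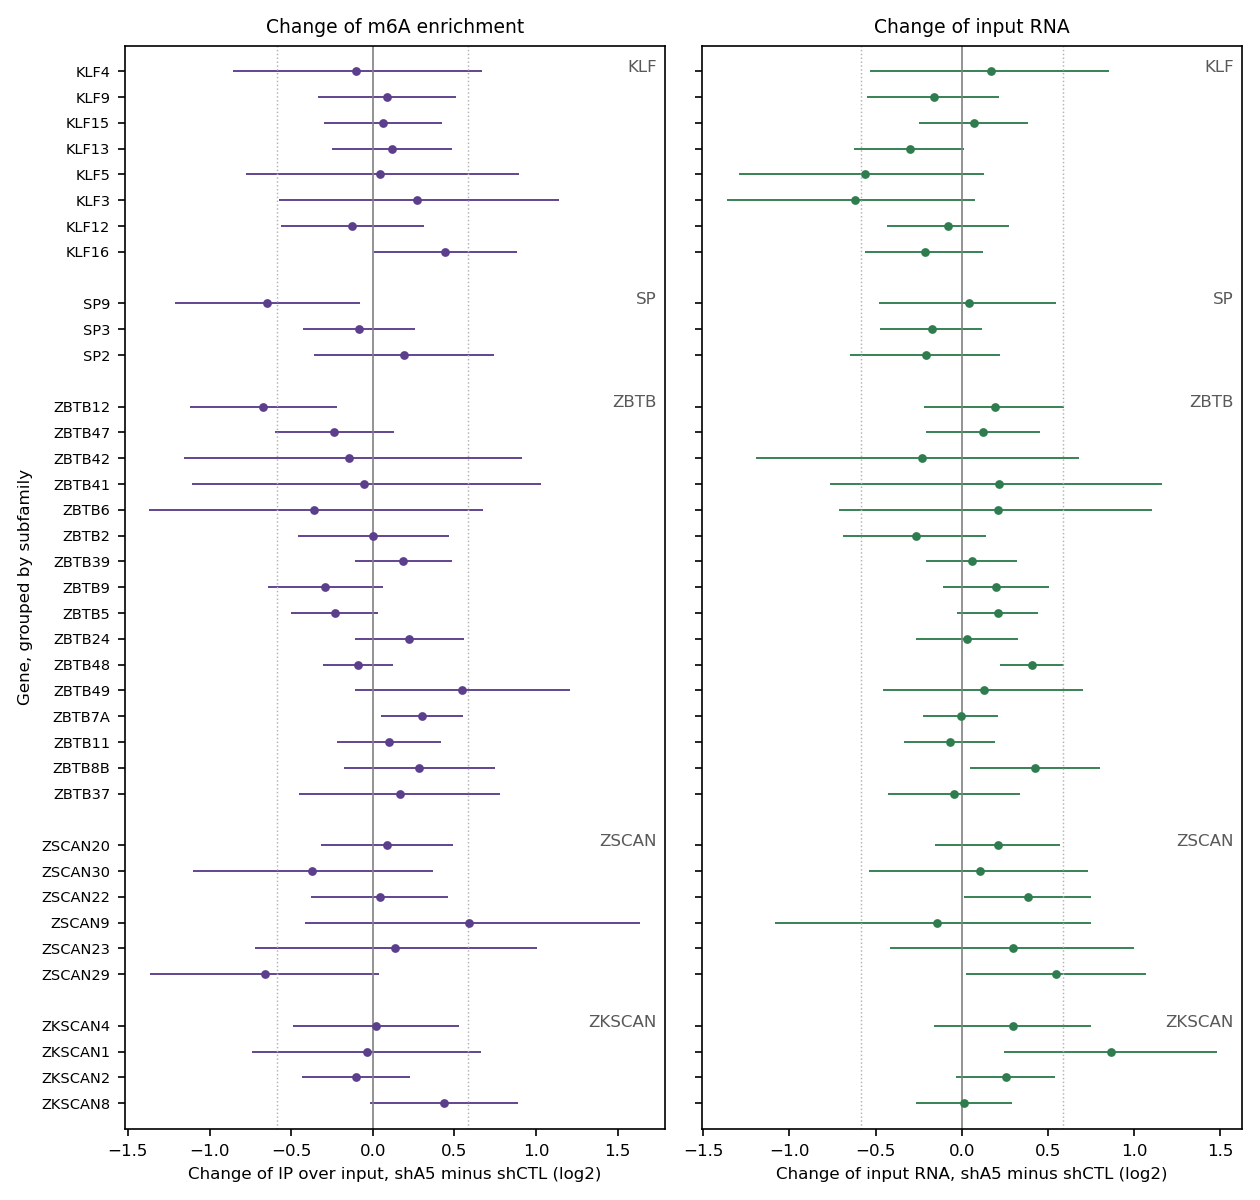
Log2 change from shCTL to shA5 of m6A enrichment (left, purple) and of input RNA (right, green) for the 37 genes, grouped by family, without added CPM. Bars are exact 95% counting intervals and dotted lines mark 1.5-fold. On the left the intervals of ZBTB12 and SP9 lie wholly below 0 and those of ZBTB7A and KLF16 wholly above it, and on the right 5 intervals lie wholly above 0.

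The change of input RNA addresses which of these mRNAs differed in level between the 2 populations. In these bulk libraries, fewer cells with a transcript and less of it per cell cannot be told apart. At least 1.5-fold higher in shA5 was 1 of 37 (2.70%, against 3.44% of all genes) and at least 1.5-fold lower was also 1 of 37 (against 6.43% of all genes). The median change was 0.07 over the 37 and -0.02 over all genes. Of the 37 counting intervals 5 lay wholly above 0 (13.5%, against 12.9% of all genes) and 0 wholly below it (against 15.6%). The share above 0 is thus near that of all genes.

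The higher transcript was ZKSCAN1, the host gene of an abundant circular RNA, with 45, 144, 48 and 204 counts. Its level went from 20.1 to 36.6 CPM in the inputs, a log2 change of 0.85 (0.25 to 1.48), and the m6A-IP went with it, so that its enrichment was 0.84 in shCTL and 0.82 in shA5. Another of its transcripts held 0, 5, 7 and 0 of these counts. With the most counted transcript of ZKSCAN1 alone, the input change was 0.62 and the change of enrichment 0.23. Of the 25-base stretches of its transcripts 8.58% are shared with other genes. All 4 ZKSCAN genes had input changes above 0, beside 47.5% of all genes, and the other 3 ranged from 0.02 (ZKSCAN8) to 0.29 (ZKSCAN4).

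ZBTB48, the most abundant of the 37, had the narrowest of these 5 intervals, with a level that went from 247 to 328 CPM and a log2 change of 0.41 (0.22 to 0.59). ZBTB8B changed by 0.42 (0.05 to 0.80), ZSCAN22 by 0.38 (0.02 to 0.75) and ZSCAN29 by 0.54 (0.03 to 1.07). These 3 intervals start close to 0. The counts of ZBTB8B were 137, 214, 108 and 280, and those of ZSCAN22 145, 422, 111 and 453. A further gene overlaps exons of ZBTB8B on the same strand, and 11.1% of its 25-base stretches are shared with other genes.

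Of the 8 KLF transcripts 6 had input changes below 0 (75%, against 52.5% of all genes), with a median of -0.19, a count of few genes without a test. With the GC trend removed 5 of 8 were below 0, since KLF16 turned to 0.01. KLF3 was the 1 transcript past 1.5-fold, with 63, 115, 24 and 72 counts and a change of -0.61 (-1.36 to 0.08). With 2 CPM added in place of 0.5, or with its most counted transcript alone, KLF3 no longer passed 1.5-fold. KLF5, a factor of proliferating epithelia, had 63, 136, 25 and 76 counts and a change of -0.55 (-1.29 to 0.13). KLF13 had 261, 625, 124 and 438 counts and a change of -0.30 (-0.62 to 0.01). ZBTB2 and ZBTB42 followed with -0.27 and -0.22. All 5 intervals include 0.

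In structure, the 37 most counted transcripts had fewer exons than those of other genes, a median of 4 against 9, and a longer longest exon, 3612 against 1891 bases, while the ZNF genes had 4.5 and 3264. RRACH sites were no denser, at a median of 13.3 per kb in both the 37 and all genes. GGACT was present in 36 of the 37 transcripts and in 93.3% of all genes' transcripts, with a median of 4 sites in each set. Of the 2724 RRACH sites of the 37 transcripts, 922 were coding and 1717 lay in 3′ UTRs. Of their 193 GGACT sites, 65 and 117 did. Across the 37 genes, the Spearman correlation with enrichment in shCTL was -0.31 for the number of exons, -0.11 for RRACH sites per kb, -0.02 for the number of GGACT sites and 0.08 for the number of encoded fingers. For the length of the longest exon it was -0.20, beside -0.23 over the ZNF genes and 0.06 over all genes. Transcript length gave -0.30 over the 37. Within the 37, longer exons thus did not go with higher enrichment. These are descriptions across genes of the same libraries, which are not independent replicates.

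GC content was lower in the 37 transcripts than in others, with a median of 46.2%, against 48.0% for the ZNF genes and 51.4% for all genes. Enrichment went with GC content in each set, with a Spearman correlation of 0.28 over the 37, 0.52 over the 122 ZNF genes and 0.36 over the 5307 genes with a GC value. SP9, ZBTB12 and ZBTB47 had GC contents of 61.9, 64.1 and 60.4%, and ZBTB37 and ZKSCAN8 39.3 and 40.8%. KLF16 had the highest of the 37, 67.8%, with depletion in shCTL, and ZBTB41 the lowest, 32.9%, with an enrichment of 1.06. With the GC trend over all genes removed, an alternative added after the data had been seen, 21 of 37 passed 1.5-fold enrichment in shCTL against 21% of all genes. In shA5 the number was 23 of 37 against 22.4% of all genes. ZKSCAN8 and ZBTB37 were depleted in both populations with the trend removed, at -1.49 and -1.25 in shCTL and -0.984 and -0.997 in shA5. ZBTB12 and SP9 were enriched in shCTL, at 1.08 and 1.26, but short of 1.5-fold in shA5, at 0.34 and 0.57. Their changes were -0.75 and -0.70. The other calls of enrichment or depletion that differed from those reported were KLF15 in both populations and, in shA5 alone, the loss of ZBTB7A, the new depletion of KLF16 and the new enrichment of KLF3, KLF5, SP3, ZBTB5, ZBTB11, ZSCAN23 and ZSCAN30. The part of GC content in the order of single genes was not tested otherwise.

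**Figure D3:**
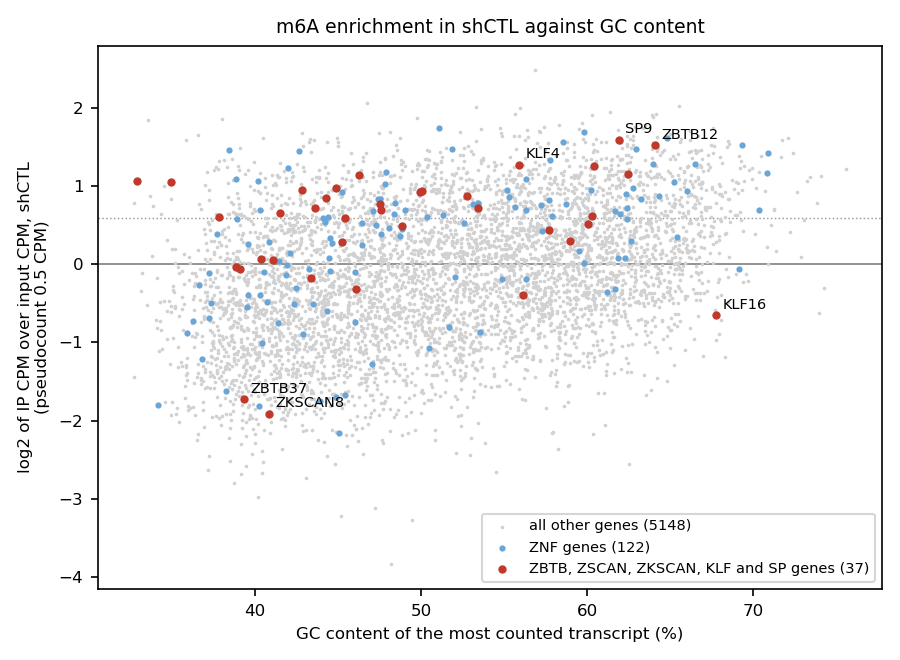
Log2 of m6A-IP CPM over input CPM in shCTL, with 0.5 CPM added (vertical axis), against the GC content of the most counted transcript in percent (horizontal axis) for the 37 zinc finger genes (red), 122 ZNF genes (blue) and the other genes (grey). The dotted line marks 1.5-fold. SP9 and ZBTB12 lie at high GC content and high enrichment, and KLF16 at high GC content below 0.

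Below the count minimum were 49 of the 86 genes, 25 with a mean under 10 counts and 24 with a mean from 10 to under 50. In 10 of them no library held more than 3 counts, the level taken here as the floor, which is 1.34 CPM in the input of shCTL and 2.29 CPM in that of shA5. Just inside the minimum stood ZBTB41 with a mean of 55 counts, and just outside it ZBTB8A with 45. Several well-known factors were among the low ones. KLF6, a tumour suppressor induced by stress, had 37, 48, 35 and 55 counts, and KLF2 had 19, 39, 8 and 26. ZBTB16 (PLZF), a stem cell factor, had 46, 62, 10 and 40, and ZBTB40 had 6, 1, 6 and 5. SP100, which gives its name to a kind of nuclear body, had 0, 3, 0 and 0. ZBTB17 (MIZ1), a partner of MYC, had 4, 4, 4 and 7. SP1, the founding member of the SP family and expressed in nearly all cell types, had 3, 3, 1 and 6. KLF17, ZSCAN4 and ZSCAN10, factors of early embryos and stem cells, were not listed in any library.

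Low counts went with the number of transcripts annotated for a gene. Of the 17 zinc finger genes with 1 annotated coding transcript 14 passed the minimum, of the 29 with 2 to 3 transcripts 12, of the 21 with 4 to 6 transcripts 9, and of the 18 with 7 or more 2. Over all genes the shares of these 4 classes were 50, 38.6, 31.2 and 26.8%. Where at least 50% of the most counted transcript lay in exons of no other annotated transcript, 25 of 35 genes passed (71.4%), and 12 of 50 did otherwise (24%), beside 47.8 and 31.1% of all genes. SP1, for example, has 4 annotated coding transcripts and 0% of its most counted transcript to itself, and SP8 is left out since its transcript is not in Gencode v44. Of the 62 genes whose MANE Select transcript, the agreed reference transcript, had a count, 32 passed, and of the other 24 genes 5 passed. For KLF12, among these 5, no MANE Select transcript was found. A counted transcript itself adds to the mean of its gene, so this split is tied to the minimum. The same split over all genes is not given here. How the counting behind the deposited values treated reads shared by several transcripts is not given in the sources used here, and its part in the low counts was not tested, so a low count here does not show a low level of the gene.

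**Figure D4:**
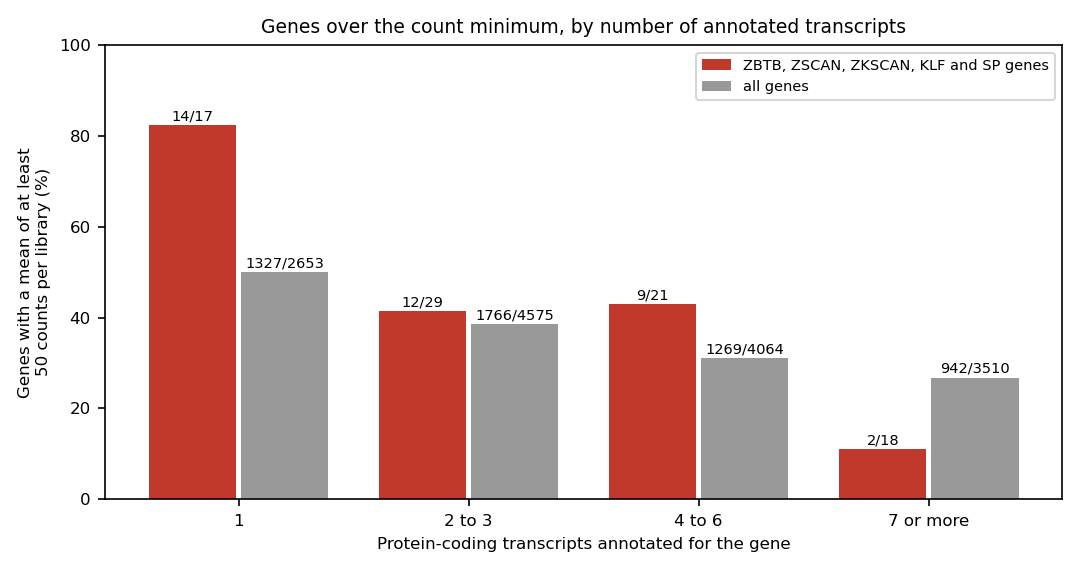
Share of genes that averaged 50 or more counts per library (vertical axis, percent) by the number of protein-coding transcripts annotated for the gene in Gencode v44 (horizontal axis), for 85 of the 86 zinc finger genes (red) and all genes (grey). Labels give genes over the minimum of genes in the class. The red bars go from 82.4% with 1 transcript to 11.1% with 7 or more, and the grey bars from 50 to 26.8%.

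The counted transcript was not always one that encodes fingers. The most counted transcripts of ZSCAN9 and ZSCAN30 encode 0 C2H2 fingers. In ZSCAN9 this transcript had 30, 73, 15 and 80 of the gene's counts, and one that encodes 5 fingers had 2, 10, 2 and 13. In ZSCAN30 it had 51, 164, 34 and 103 counts. ZSCAN30 overlaps ZNF397 on the opposite strand, which had 324, 306, 175 and 246 counts. Over all 86 genes, 28 overlapped an exon of a gene on the opposite strand and 7 one on the same strand. Among these was ZBTB24, mutated in an immunodeficiency with unstable centromeres, which had 257, 716, 154 and 682 counts, while MICAL1 on the same strand had 1 to 5 per library.

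Known partners of these proteins were read beside them. Of 20 genes for corepressors, cofactors and partners, 11 passed the count minimum, and BCOR, a corepressor of BTB proteins, was the 1 past 1.5-fold enrichment in shCTL, with 407, 1131, 289 and 957 counts and a log2 enrichment of 0.66 (1 of 11, beside 22.5% of all genes). It had 0.46 in shA5, where 0 of the 11 passed. In each population 6 of the 11 were at least 1.5-fold depleted, beside 30.3% of all genes in shCTL and 31.7% in shA5, namely HDAC1, HDAC2, HDAC3, CBX5, CREBBP and MYC. The histone deacetylase HDAC1, with 2593, 2745, 1497 and 2149 counts, had enrichments of -0.74 and -0.74. CBX5, the heterochromatin protein recruited through TRIM28, had 515, 227, 269 and 148 counts and enrichments of -1.99 and -2.11. TRIM28 itself had 642, 833, 345 and 637 counts and enrichments of -0.44 and -0.38. None of the 11 changed by 1.5-fold in enrichment or in input between shCTL and shA5 in this comparison of single libraries.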

How the data were processed

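The authors enriched poly(A) RNA, and the submitters' processing notes name fastp 0.23.2, alignment with HISAT2 (hg38) and SAMtools 1.9. The values deposited by the authors are counts, whole numbers for each Ensembl transcript without normalization. The methods name StringTie for quantification. Whether it wrote these counts, the annotation release, the use of strand and the rule for shared reads are not given in the sources used here. Counts were summed per gene name and divided by the library total (CPM). The depth, 1311390 counts in the shA5 input, limits the precision. No p-value was computed, since each group is 1 library. Reads carry no molecular identifiers, so intervals cover counting error only. Gencode v44, which holds 98.1% of the 28413 transcripts, gave structure, sequences and C2H2 fingers (by pattern).

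The zinc finger genes and the lists were chosen with earlier results of these data known. Named are those of the 37 at the ends of each measure (5 on each side), those with an interval of a change wholly past 0, the 3 most abundant per kb in the shCTL input, and low-count genes known in DNA damage or pluripotency, besides family leaders and partners, chosen after their values were seen. Alternatives were edgeR 4.0.16 TMM or DESeq2 1.42.0 size factors, pseudocounts, count minimums, a 2-fold threshold, subsets of transcripts and a lowess GC trend (span 0.3). Steps were tested on simulated data with Python 3.11.15, numpy 2.4.6, scipy 1.17.1 and R 4.3.3.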

Additional observations from a re-analysis of the deposited data

Results flagged for a closer look

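Among the 37 zinc finger genes over the count minimum, 2 had a change of m6A enrichment from shCTL to shA5 that was both at least 1.5-fold and had a counting interval wholly past 0. The value of ZBTB12 was -0.67 and that of SP9 was -0.64, both lower in shA5. These genes also had the 2 highest enrichments in shCTL, a value that enters the change, and the intervals do not allow for that. The intervals cover counting error between these libraries and no replicate error, so a difference between the 2 cell populations was not tested.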

How the results depend on the processing

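No paired analysis was possible because there was 1 library in each group, and no library could be left out. Of 96 recomputed numbers of genes past 1.5-fold, 65 stayed within 1.5 times the reported number. They include those without SP100 and SP140L, which could not differ, since neither gene passed the minimum. None of 252 recomputed values of named genes reported past 1.5-fold changed sign. Of 420 values of those reported under it 8 did, in ZBTB8B (enrichment in shCTL, 0.15 with the GC trend removed), ZKSCAN1 (change of enrichment, up to 0.23), ZBTB2, and the input changes of KLF16 and ZBTB7A. In shCTL, enriched genes numbered 35 of 86 without a count minimum and 8 of 37 at 2-fold, and depleted genes 8 at a minimum mean of 10, 0 of 20 at one of 200, and 20 without a minimum. In shA5, enriched genes numbered 13 at a mean of 200, 40 without a minimum and 9 at 2-fold, and depleted genes 5, 0 and 14 at means of 10 and 200 and without a minimum. A higher enrichment in shA5 was passed by 1 gene, ZSCAN9, with TMM factors, DESeq2 size factors, 0.1 CPM added, transcripts listed in all libraries, or the GC trend removed, and by 6 genes at a mean of 10 and 15 without a minimum. A lower one was passed by 7 genes at a mean of 10, 14 without a minimum and 0 at 2-fold. Higher input was passed by 4 genes at a mean of 10, 14 without a minimum, and 0 at a mean of 200 or at 2-fold. Lower input was passed by 7 and 13 genes at a mean of 10 and without a minimum, and by 0 at a mean of 200, at 2-fold, with 2 CPM added or with the most counted transcript alone. Fewer or more genes enter at other minimums. The cause of the other differences was not tested.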
